A study of Mus musculus with 4 samples.

Results

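Gene expression in CX3CR1+CD74+ macrophages of the mouse periosteum was set against that in CX3CR1+ACE+ macrophages of the same tissue, both cultured without periostin. The members are the 2 vehicle libraries among the 4 libraries of the series, CD74+ vehicle and ACE+ vehicle, taken by their column names and matched gene by gene through the gene identifier. Of 17532 genes in either deposited table, 14398 stood in both, and the 13393 that reached 1 CPM in at least 1 of the vehicle libraries were compared. CPM are scaled read counts per 1000000. All cells came from wild type C57BL/6 mice at postnatal day 28, described as male in the growth protocol. CD45+ CX3CR1+ cells were sorted with an antibody to CD74 or to ACE. Every culture, controls included, then held 10% serum, penicillin, streptomycin and M-CSF at 10 ng/ml, and the vehicle was PBS for 24 h. The CD74+ periostin and ACE+ periostin libraries, with recombinant mouse periostin at 500 ng/ml for 24 h, serve here as a second pair. The sources used here give neither the number of mice behind a library nor whether cells carrying both markers were kept apart. With 1 library per group no difference has a replicate spread. Intervals below are exact 95% intervals of a fold that cover counting error only. Reads made by PCR are not independent molecules, so the intervals may be too narrow even for that.

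The periosteum is the cell-rich membrane that covers bone, and its macrophages clear debris, degrade matrix and signal to bone-forming and bone-resorbing cells. CD74 is the invariant chain that guides MHC class II molecules to the endosome, where cathepsins trim it and peptides are loaded. ACE, angiotensin-converting enzyme, is a membrane peptidase that makes angiotensin II. Macrophages take up particles and lipids through scavenger receptors and digest them in lysosomes, acid compartments filled with cathepsins and glycosidases.

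Depth was 16650349 reads in the CD74+ vehicle library and 15471245 reads in the ACE+ vehicle library, and 11846312 and 19798150 reads in the CD74+ and ACE+ periostin libraries. Where a gene had 0 reads, a true level of up to 3 reads cannot be told from it, that is 0.179 CPM in CD74+ vehicle and 0.188 CPM in ACE+ vehicle. The sort markers were measured first. Cd74 had 850.4 CPM in CD74+ vehicle and 531 CPM in ACE+ vehicle, 1.600-fold higher (1.56 to 1.64), and 1222 CPM in CD74+ and 552 CPM in ACE+ cells in the periostin pair. Ace was barely detected, with 15 reads or 0.897 CPM in CD74+ vehicle and 44 reads or 2.76 CPM in ACE+ vehicle, 3.08-fold lower (1.68 to 5.95). In the periostin pair Ace went the other way, with 9.51 CPM in CD74+ and 2.796 CPM in ACE+ cells. Neither sort marker passed 2-fold on the scale used for calls, and Ptprc, which encodes CD45, had 458 CPM in CD74+ and 618 CPM in ACE+ cells and Cx3cr1 18.2 CPM in CD74+ and 16.9 CPM in ACE+ cells. The libraries also went against the label of male animals in 1 respect. Xist, the RNA that coats the inactive X chromosome of female cells, had 1951 reads or 117 CPM in CD74+ vehicle and 4 reads or 0.251 CPM in ACE+ vehicle, and 82.1 CPM in CD74+ and 0.687 CPM in ACE+ cells in the periostin pair. The summed level of 4 Y-linked genes was 129 CPM in CD74+ vehicle and 198 CPM in ACE+ vehicle, and 93.03 CPM in CD74+ and 165 CPM in ACE+ cells of the periostin pair. Both CD74+ libraries thus held Xist and Y-linked transcripts together. The part of animals of different sex in any result below was not tested. In bulk samples, fewer cells of a type and less RNA per cell cannot be told apart.

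Promoters of 3 gene groups described below are shown first, because their members lay mostly on the same side and the known binding motif of the group's regulators can be read in them. Windows run from 250 bases before to 50 bases after the RefSeq start, build GRCm38.p6. Capitals mark motif matches on either strand. In the cathepsin D and alpha-galactosidase genes they mark TCACGTGA, the palindromic element bound by TFEB and its relatives in lysosomal genes. The window of Ctsd, chr7:142387778-142388077 on the minus strand, holds 1 match starting 99 bases before the start, and that of Gla, chrX:134600956-134601255 on the minus strand, holds 2.
Ctsd: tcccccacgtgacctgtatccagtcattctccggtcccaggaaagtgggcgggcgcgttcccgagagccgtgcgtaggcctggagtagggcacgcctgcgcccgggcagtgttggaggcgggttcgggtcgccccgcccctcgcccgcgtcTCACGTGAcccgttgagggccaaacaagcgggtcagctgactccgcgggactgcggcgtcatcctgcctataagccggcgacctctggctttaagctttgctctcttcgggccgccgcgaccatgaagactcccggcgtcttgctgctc
Gla: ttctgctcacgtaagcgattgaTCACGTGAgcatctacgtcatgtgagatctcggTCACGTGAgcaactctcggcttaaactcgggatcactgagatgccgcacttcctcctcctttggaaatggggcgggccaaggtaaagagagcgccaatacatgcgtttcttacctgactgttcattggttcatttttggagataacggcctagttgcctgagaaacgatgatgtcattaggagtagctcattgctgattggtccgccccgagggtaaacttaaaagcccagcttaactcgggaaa
In the interferon-stimulated genes Oas1a and Ifit1 the capitals mark the core of the interferon-stimulated response element, GAAA followed after any 2 bases by GAAA. The Oas1a window, chr5:120907476-120907775 on the minus strand, holds 2 overlapping matches, and the Ifit1 window, chr19:34640639-34640938 on the plus strand, holds 2 separate ones.
Oas1a: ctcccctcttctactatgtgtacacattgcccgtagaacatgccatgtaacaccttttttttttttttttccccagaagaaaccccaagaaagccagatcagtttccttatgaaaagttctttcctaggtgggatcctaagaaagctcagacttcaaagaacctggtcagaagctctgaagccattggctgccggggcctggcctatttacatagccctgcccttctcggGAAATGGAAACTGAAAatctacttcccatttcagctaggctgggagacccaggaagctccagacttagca
Ifit1: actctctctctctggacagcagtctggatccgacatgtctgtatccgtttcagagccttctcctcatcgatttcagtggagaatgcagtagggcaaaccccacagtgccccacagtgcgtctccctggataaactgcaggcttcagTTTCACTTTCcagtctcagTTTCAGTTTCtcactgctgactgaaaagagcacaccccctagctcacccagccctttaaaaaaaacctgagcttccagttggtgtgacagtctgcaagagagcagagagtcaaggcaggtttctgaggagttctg
In Vpreb3, a gene of B-cell precursors, the capitals mark the octamer ATGCAAAT, bound by OCT factors and their B-cell coactivator. Its window is chr10:75948050-75948349 on the plus strand.
Vpreb3: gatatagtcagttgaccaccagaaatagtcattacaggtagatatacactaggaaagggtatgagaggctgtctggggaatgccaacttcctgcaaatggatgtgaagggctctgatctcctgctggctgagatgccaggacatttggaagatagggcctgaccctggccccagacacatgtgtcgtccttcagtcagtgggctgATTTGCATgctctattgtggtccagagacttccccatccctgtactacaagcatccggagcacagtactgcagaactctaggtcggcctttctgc
Of 32851 RefSeq promoters of this length, 3.44% hold this core, 0.974% TCACGTGA and 1.74% ATGCAAAT. The interferon core stood in 18 of 31 windows of interferon-stimulated genes. TCACGTGA stood in 2 of 14 cathepsin windows and 5 of 36 windows of other lysosomal genes, and the octamer in 2 of 15 windows of B-cell genes. Other lists held the octamer at like rates, in 4 of 24 windows of inflammatory cytokines and 3 of 22 of immediate-early genes. The shorter core CACGTG, which TCACGTGA contains, stood in 5 cathepsin windows and 9 lysosomal windows, against 7.15% of all. It stood in 4 of 16 windows of dendritic cell genes too. A match describes the letters of a window and shows no binding in these cells.

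Of the genes compared, 488 were at least 2-fold higher in CD74+ vehicle, 3.64% of them, and 1035 were at least 2-fold lower, 7.73%, on the scale of log2(CPM + 1). Those 2 shares are the ones to set beside the counts of list members below. The median log2 change over all genes compared was -0.0008. At 4-fold the counts were 45 higher and 147 lower. The genes past 2-fold lower in CD74+ vehicle included most compared markers of B cells, red cells and platelets. Those past 2-fold higher included most compared cartilage markers and some cathepsin, scavenger and interferon-stimulated genes.

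**Figure D1:**
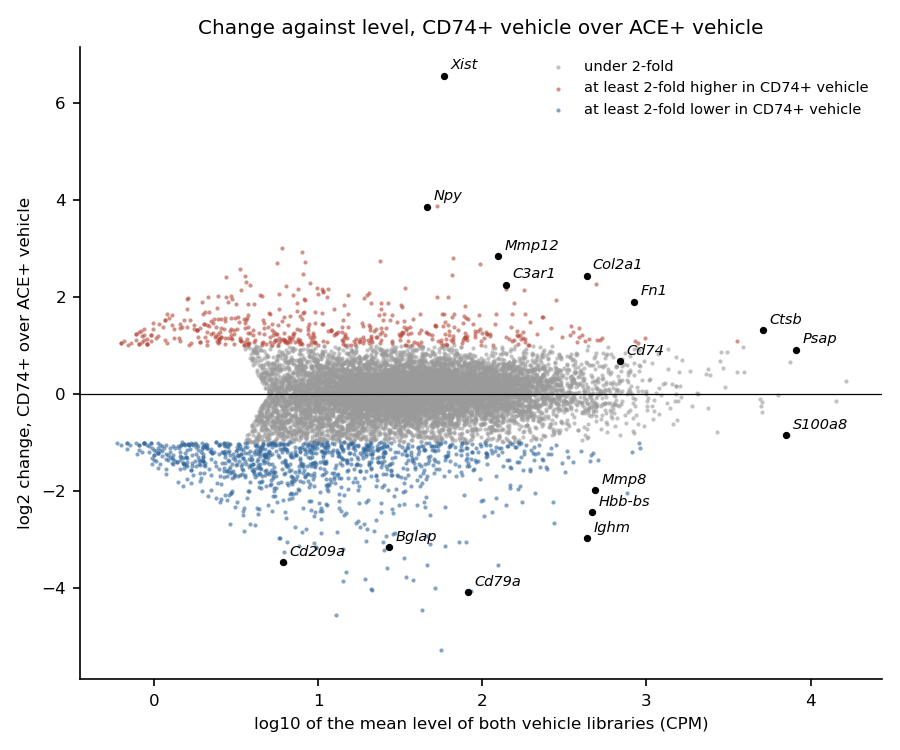
Each point is a gene, with the log10 of its mean level in both vehicle libraries (CPM) on the x axis and its log2 change, CD74+ vehicle over ACE+ vehicle, on the y axis. Genes past 2-fold and all genes that reach 5 CPM in a vehicle library are drawn, red for higher and blue for lower in CD74+ vehicle, and black dots with names are genes described in the text. Xist stands alone at 6.56, and Cd79a lies near the bottom at -4.09.

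Most cathepsins, the proteases of the lysosome, had higher levels in the CD74+ vehicle library. Ctsb, cathepsin B (chr14:63122462-63145923, plus strand), had 7278 CPM in CD74+ vehicle against 2936 CPM in ACE+ vehicle, 2.48-fold higher (2.45 to 2.51). Ctsl, which trims the invariant chain and matrix proteins, had 507 CPM in CD74+ and 209 CPM in ACE+ cells, 2.42-fold higher (2.33 to 2.52). Ctsa, a carboxypeptidase that also shields lysosomal glycosidases, had 1358 CPM in CD74+ and 614 CPM in ACE+ cells. Those 3 were the cathepsins past 2-fold in this direction. Of 17 cathepsin genes compared, 13 were higher by any amount, with a median log2 change of 0.65. Ctsd, whose promoter is shown above, had 9156 CPM in CD74+ and 5836 CPM in ACE+ cells, 1.57-fold higher (1.56 to 1.58), and Ctsz 1172 CPM in CD74+ and 623 CPM in ACE+ cells. Ctsk, the collagen-cleaving cathepsin of osteoclasts, had 346 CPM in CD74+ vehicle against 535 CPM in ACE+ vehicle, 1.54-fold lower (1.49 to 1.597), and Ctsg, a granule protease of neutrophils, 1.196 CPM in CD74+ and 3.39 CPM in ACE+ cells. Only Ctsf, with 2.33 CPM in CD74+ and 5.896 CPM in ACE+ cells, was past 2-fold lower among the cathepsins.

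The other lysosomal genes leaned the same way by smaller amounts. Of 38 genes of the lysosome and its proton pump, 31 were higher in CD74+ vehicle, where 49.9% of all genes compared were. The median log2 change was 0.42. Past 2-fold higher were 2, that is 5.26% of the list beside 3.64% of all genes compared. Gaa, the acid glucosidase that degrades glycogen, had 232 CPM in CD74+ vehicle against 94.3 CPM in ACE+ vehicle, 2.46-fold higher (2.31 to 2.61). Gusb, beta-glucuronidase, had 476 CPM in CD74+ and 205 CPM in ACE+ cells. Gla, alpha-galactosidase, had 271 CPM in CD74+ and 137 CPM in ACE+ cells, a log2 change of 0.98 that stopped just short of the threshold. Grn, the precursor of the lysosomal granulins, had 1770.5 CPM in CD74+ and 935 CPM in ACE+ cells. Neu1, a sialidase, was an exception at 92.9 CPM in CD74+ and 109 CPM in ACE+ cells. By difference in level, the widest gap in favour of CD74+ vehicle over all protein-coding genes was that of Psap, the precursor of the saposins that help degrade sphingolipids, with 10636 CPM in CD74+ and 5666 CPM in ACE+ cells, 1.88-fold higher (1.86 to 1.89). Ctsb and Ctsd came next, followed by the ferritin heavy chain gene Fth1 with 17745 CPM in CD74+ and 14888 CPM in ACE+ cells and Gpnmb, a glycoprotein of lysosome-rich macrophages, with 4863 CPM in CD74+ and 2287 CPM in ACE+ cells. Such gaps favour long and abundant transcripts, since CPM is not per length.

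Some scavenger receptor genes were higher as well. Cd36, which takes up oxidised lipids and fatty acids (chr5:17781690-17888801, minus strand), had 814 CPM in CD74+ vehicle against 168 CPM in ACE+ vehicle, 4.85-fold higher (4.66 to 5.06). Lrp1, an endocytic receptor for lipoproteins and apoptotic cells, had 717 CPM in CD74+ and 329.6 CPM in ACE+ cells. Cd68, a lysosomal membrane glycoprotein of macrophages, had 1191 CPM in CD74+ and 576 CPM in ACE+ cells. They were the 3 scavenger genes past 2-fold higher of 13 compared, and 10 were above 0. Msr1, the class A receptor, had 20.1 CPM in CD74+ and 24.8 CPM in ACE+ cells. Marco rested on 1 read in CD74+ vehicle and 47 reads in ACE+ vehicle, a 49.3-fold lower ratio with an interval of 8.43 to 1989, and its direction turned in the periostin pair, 5.47 CPM in CD74+ and 1.57 CPM in ACE+ cells. C3ar1, the receptor for complement fragment C3a, had 230.1 CPM in CD74+ and 47.5 CPM in ACE+ cells, 4.84-fold higher (4.47 to 5.24). Anpep, the membrane aminopeptidase CD13, had 444 CPM in CD74+ and 116 CPM in ACE+ cells and was 3.82-fold higher (3.63 to 4.03).

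Genes of macrophage identity lay on both sides. Of 23 compared, 5 were at least 2-fold higher and 3 at least 2-fold lower in CD74+ vehicle, and the list's summed level was 9690 CPM in CD74+ and 9879 CPM in ACE+ cells. Cd14, the coreceptor for bacterial lipopolysaccharide, had 215 CPM in CD74+ vehicle against 82.05 CPM in ACE+ vehicle, 2.62-fold higher (2.46 to 2.79). Trem2, a lipid-sensing receptor, had 212 CPM in CD74+ and 97.98 CPM in ACE+ cells. Cd14 and Trem2 were also past 2-fold higher in the periostin pair, with log2 changes of 2.09 and 1.12. Aif1 had 8.07 CPM in CD74+ and 2.76 CPM in ACE+ cells but turned in the periostin pair, 3.23 CPM in CD74+ and 7.26 CPM in ACE+ cells. Lyve1, a hyaluronan receptor of perivascular macrophages, had 2.45 CPM in CD74+ and 15.1 CPM in ACE+ cells, 6.14-fold lower (4.396 to 8.78). Tmem119 had 1.38 CPM in CD74+ and 5.52 CPM in ACE+ cells and the folate receptor gene Folr2 7 reads in CD74+ and 39 reads in ACE+ cells, although the log2 change of Folr2 was 0.41 in the periostin pair. Adgre1, which encodes F4/80, had 34.9 CPM in CD74+ and 54.5 CPM in ACE+ cells, under 2-fold.

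**Figure D2:**
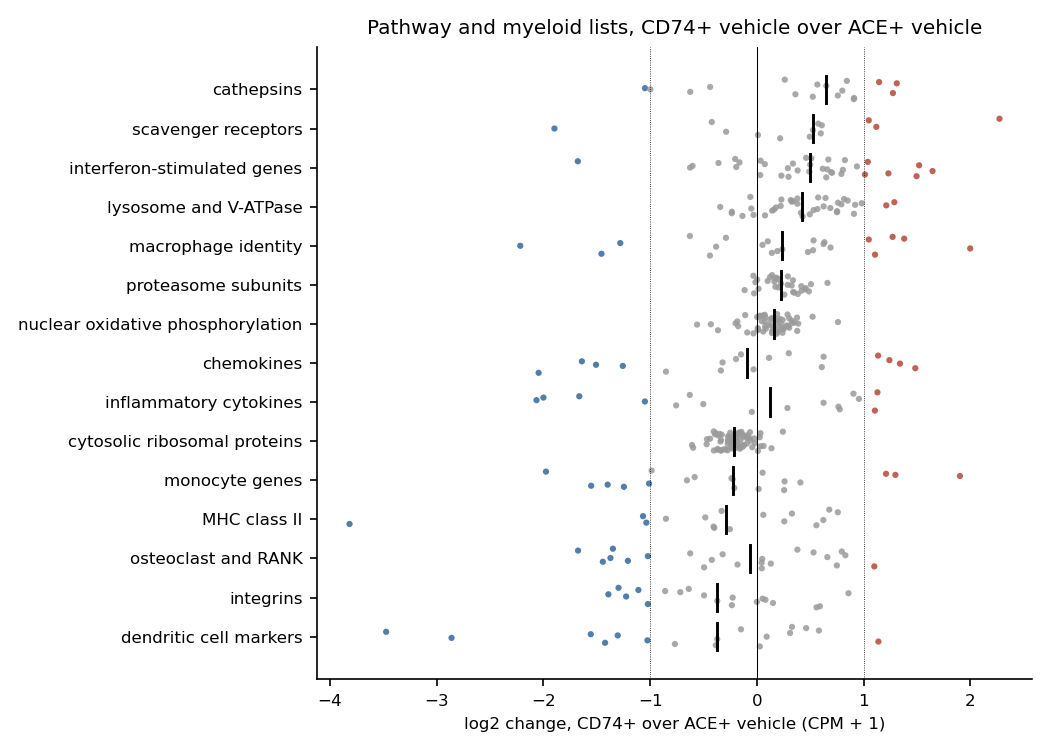
Each row is a list of pathway or myeloid genes, each point a gene compared, and the x axis its log2 change, CD74+ vehicle over ACE+ vehicle. Red points are at least 2-fold higher, blue points at least 2-fold lower and black bars list medians. Cathepsins sit mostly to the right with a median of 0.65, and ribosomal protein genes form a tight band to the left of 0.

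Among protein-coding genes of at least 5 CPM, Prg4 and Npy had the largest changes in favour of CD74+ vehicle on the scale of log2(CPM + 1), at 3.88 and 3.86. Prg4 did not keep its direction in the periostin pair, where its log2 change was -0.43. Npy, neuropeptide Y (chr6:49822710-49829507, plus strand), a transmitter of sympathetic nerves that some myeloid cells also make, had 87.2 CPM in CD74+ vehicle against 5.08 CPM in ACE+ vehicle, 17.2-fold higher (13.7 to 21.7). It had 162 CPM in CD74+ and 8.98 CPM in ACE+ cells in the periostin pair, so it was high in both CD74+ libraries and low in both ACE+ libraries. Mmp12, the macrophage elastase (chr9:7344381-7369499, plus strand), had 219 CPM in CD74+ and 29.9 CPM in ACE+ cells, 7.35-fold higher (6.68 to 8.104), and 176 CPM in CD74+ and 30.8 CPM in ACE+ cells in the periostin pair. Other genes of this group had little expression in ACE+ vehicle. Cacna1b, a subunit of neuronal calcium channels, had 253 reads in CD74+ and 23 reads in ACE+ cells, Adra1a, an adrenergic receptor, 192 reads in CD74+ and 9 reads in ACE+ cells, and Sstr5, a somatostatin receptor, 112 reads in CD74+ and 9 reads in ACE+ cells. Their folds of 10.5, 20.3 and 11.9 have wide intervals, 6.83 to 16.8, 10.5 to 45.1 and 6.03 to 26.6. Nrp1, a receptor for semaphorins and VEGF, had 176 CPM in CD74+ and 64.6 CPM in ACE+ cells, 2.72-fold higher (2.53 to 2.92). Mki67, expressed in dividing cells, had 229.6 CPM in CD74+ and 72.7 CPM in ACE+ cells. Genes of DNA replication and mitosis leaned the same way by less, with 31 of 46 above 0 and a median of 0.22. Past 2-fold were 4 higher and 1 lower, 8.70% and 2.17% of the list, beside 3.64% and 7.73% of all genes compared.

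Cartilage matrix genes were higher in CD74+ vehicle. Of 19 chondrocyte markers compared, 14 passed 2-fold higher and none passed 2-fold lower, the median log2 change was 1.37, and their summed level was 1608 CPM in CD74+ vehicle and 337 CPM in ACE+ vehicle. Col2a1, the main cartilage collagen (chr15:97975602-98004695, minus strand), had 729.6 CPM in CD74+ and 134 CPM in ACE+ cells, 5.45-fold higher (5.200 to 5.704). Acan, which encodes aggrecan, the large proteoglycan of cartilage, had 116 CPM in CD74+ and 15.9 CPM in ACE+ cells. Prg4, lubricin, made at joint surfaces, had 99.6 CPM in CD74+ and 5.83 CPM in ACE+ cells, 17.1-fold higher (13.8 to 21.3), against 23.1 CPM in CD74+ and 31.4 CPM in ACE+ cells in the periostin pair. In the periostin pair the list was less uneven, with summed levels of 1188 CPM in CD74+ and 985 CPM in ACE+ cells. There 5 members passed 2-fold higher and 1 passed 2-fold lower. The lower member was Col10a1, the collagen of hypertrophic cartilage, with 169 CPM in CD74+ and 25.7 CPM in ACE+ cells in the vehicle pair, 6.57-fold higher (5.92 to 7.31), and 6.01 CPM in CD74+ and 64.6 CPM in ACE+ cells in the periostin pair. ACE+ vehicle thus had the lowest summed level of the 4 libraries. Fn1, fibronectin, which macrophages and matrix cells both make, followed that order, with vehicle levels of 1323 CPM in CD74+ and 353 CPM in ACE+ cells and periostin levels of 745 CPM in CD74+ and 661 CPM in ACE+ cells. The part of cartilage cells in the differences of matrix genes was not tested.

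Interferon-stimulated genes mostly had higher levels in CD74+ vehicle. Of 35 compared, 28 were above 0, 6 passed 2-fold higher and 1 passed 2-fold lower, with a median log2 change of 0.50. Oas1a, an enzyme that senses double-stranded RNA, had 88.4 CPM in CD74+ vehicle against 27.6 CPM in ACE+ vehicle, 3.204-fold higher (2.88 to 3.57). Ifit1, which binds viral RNA caps, had 21.5 CPM in CD74+ and 6.84 CPM in ACE+ cells, 3.14-fold higher (2.53 to 3.93). Usp18, which removes ISG15 from proteins, had 49.4 CPM in CD74+ and 16.9 CPM in ACE+ cells. The promoter windows of Oas1a and Ifit1 shown above hold the response element. Ifi203 went the other way with 16.3 CPM in CD74+ and 54.3 CPM in ACE+ cells, 3.34-fold lower (2.91 to 3.84), and its own window holds the motif too. Whether a match goes with a change was not tested. Irf1 had 49.98 CPM in CD74+ and 77.7 CPM in ACE+ cells. In the periostin pair 14 members were past 2-fold higher and the median of the same genes was 0.78.

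Secreted signals did not lie on a single side. Cxcl2, a neutrophil attractant, had 88.1 CPM in CD74+ vehicle against 30.9 CPM in ACE+ vehicle, 2.85-fold higher (2.58 to 3.17). Ccl9 had 149.9 CPM in CD74+ and 62.9 CPM in ACE+ cells and Ccl3 251 CPM in CD74+ and 114 CPM in ACE+ cells, both past 2-fold. Those 3 chemokines were past 2-fold higher in the periostin pair too, with log2 changes of 1.47, 1.43 and 1.52. Tnf had 76.8 CPM in CD74+ and 35.2 CPM in ACE+ cells and Csf1, which encodes M-CSF, 237 CPM in CD74+ and 108 CPM in ACE+ cells. Several interleukins were on the lower side. Il1a had 4.54 CPM in CD74+ and 22.2 CPM in ACE+ cells, 4.89-fold lower (3.805 to 6.35), Il12a 3.83 CPM in CD74+ and 14.3 CPM in ACE+ cells, Il1b 16.1 CPM in CD74+ and 34.4 CPM in ACE+ cells, and Il12b 10 reads in CD74+ and 86 reads in ACE+ cells. Cxcl12, made by marrow and periosteal stromal cells, had 19.7 CPM in CD74+ and 57.96 CPM in ACE+ cells, 2.94-fold lower (2.59 to 3.34). Cd274, which encodes the checkpoint ligand PD-L1, had 109.6 CPM in CD74+ and 48.05 CPM in ACE+ cells, 2.28-fold higher (2.095 to 2.48).

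Antigen presentation genes were divided. H2-Eb1, a chain of the class II molecule I-E, had 162 CPM in CD74+ vehicle against 105 CPM in ACE+ vehicle, 1.54-fold higher (1.45 to 1.64), and Ctss, the protease that makes the last cuts in CD74, 1904 CPM in CD74+ and 1126 CPM in ACE+ cells. Neither passed 2-fold, and Cd74 itself did not. None of 16 class II genes was past 2-fold higher and 3 were past 2-fold lower, 18.75% beside 7.73% of all genes compared. The lower genes were loading factors rather than the class II chains. H2-Ob, a chain of the inhibitor H2-O found mainly in B cells, had 1.67 CPM in CD74+ and 36.7 CPM in ACE+ cells, 21.9-fold lower (15.01 to 33.3), its partner H2-Oa 17 reads in CD74+ and 50 reads in ACE+ cells, and H2-DMa 12.7 CPM in CD74+ and 27.7 CPM in ACE+ cells. B-cell markers moved with them, as given next, and their part in the H2-O difference was not tested.

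B-cell genes were far lower in CD74+ vehicle. Cd79a, a signalling chain of the B-cell receptor, had 8.25 CPM in CD74+ and 156 CPM in ACE+ cells, 18.9-fold lower (15.9 to 22.6), and its partner Cd79b 8.73 CPM in CD74+ and 163 CPM in ACE+ cells. Ighm, the heavy chain of IgM, had 97.6 CPM in CD74+ and 771 CPM in ACE+ cells, and Igkc, the kappa light chain, 18.8 CPM in CD74+ and 229.6 CPM in ACE+ cells. All of these were low in both CD74+ libraries and high in both ACE+ libraries. Of 20 markers, 10 stood in both tables, 9 were compared and 8 were past 2-fold lower. The summed level over the 19 in either table was 198 CPM in CD74+ vehicle and 1801 CPM in ACE+ vehicle, and 188 CPM in CD74+ and 1771 CPM in ACE+ cells in the periostin pair. Rag1, Pax5, Bank1 and Rag2 were at 0 reads in CD74+ vehicle. Vpreb3, whose promoter is shown above, had 2 reads in CD74+ and 408 reads in ACE+ cells, a 214-fold lower ratio with an interval of 58.9 to 1773. Pou2af1, the B-cell coactivator of OCT factors, had 2.81 CPM in CD74+ and 83.1 CPM in ACE+ cells, 29.6-fold lower (22.1 to 40.5). Ms4a1, which encodes CD20, had 4.07 CPM in CD74+ and 71.9 CPM in ACE+ cells. Blnk, a B-cell adaptor that macrophages also express, had 49.1 CPM in CD74+ and 60.7 CPM in ACE+ cells. Cells were sorted on CX3CR1, a receptor of monocytes and macrophages, and whether B cells passed the gate was not measured. The part of B cells in these differences was not tested.

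Red-cell and platelet genes were lower too. Of 14 erythroid markers compared, 11 were past 2-fold lower in CD74+ vehicle, and the summed level was 522 CPM in CD74+ and 2142 CPM in ACE+ cells. Hbb-bs, a beta-globin, had 143 CPM in CD74+ vehicle against 787 CPM in ACE+ vehicle, 5.49-fold lower (5.25 to 5.73). The alpha-globin genes Hba-a1 and Hba-a2, near-identical copies whose reads may be shared between them, had 74.2 and 35.04 CPM in CD74+ vehicle against 475 and 193 CPM in ACE+ vehicle. Alas2, the first enzyme of heme synthesis in red cells, had 4.25 CPM in CD74+ and 35.4 CPM in ACE+ cells, 8.33-fold lower (6.502 to 10.8). Of 15 megakaryocyte and platelet markers, 10 were past 2-fold lower and all lay below 0, with summed levels of 2557 CPM in CD74+ and 5884 CPM in ACE+ cells. Ppbp, a chemokine stored in platelets, had 298 CPM in CD74+ and 1234 CPM in ACE+ cells, 4.14-fold lower (4.01 to 4.27). The platelet integrin Itga2b had 577 CPM in CD74+ and 1247 CPM in ACE+ cells.

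Neutrophil genes followed the same direction at much higher levels. Their summed level was 14794 CPM in CD74+ vehicle and 26517 CPM in ACE+ vehicle, 21 of 22 were below 0 and 10 passed 2-fold lower. Mmp8, the neutrophil collagenase, had 196 CPM in CD74+ and 778 CPM in ACE+ cells, 3.97-fold lower (3.82 to 4.13). Csf3r, the G-CSF receptor, had 157 CPM in CD74+ and 483 CPM in ACE+ cells, and Ly6g, a surface marker of neutrophils, 4.604 CPM in CD74+ and 17.9 CPM in ACE+ cells. The calprotectin genes S100a8 and S100a9, which monocytes also express, carried most of the summed level. S100a8 had 5069.7 CPM in CD74+ vehicle against 9157 CPM in ACE+ vehicle, 1.81-fold lower (1.79 to 1.82), and S100a9 5223 CPM in CD74+ and 9413 CPM in ACE+ cells. Those 2 had the widest gaps in level in favour of ACE+ vehicle, ahead of Tmsb4x, Ftl1 and Lyz2. Lyz2, the lysozyme of myeloid cells, had 4386 CPM in CD74+ and 5718 CPM in ACE+ cells. Chil3 alone of the list lay above 0, with 908 CPM in CD74+ and 876 CPM in ACE+ cells.

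**Figure D3:**
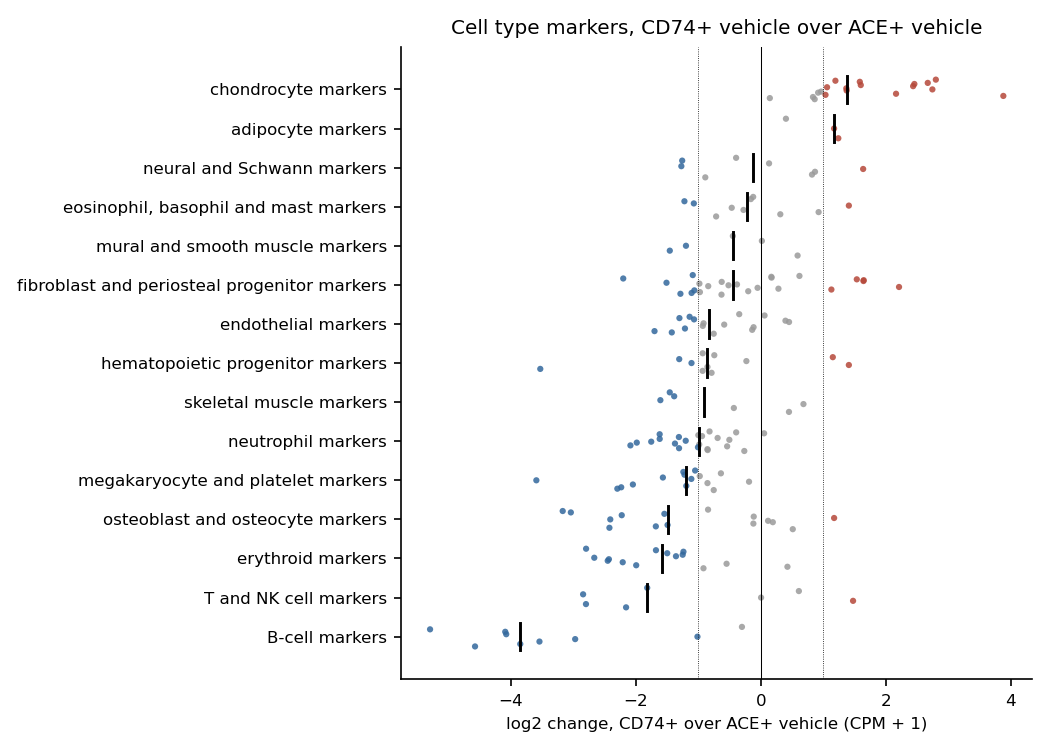
Each row is a list of cell type markers, each point a gene compared, and the x axis its log2 change, CD74+ vehicle over ACE+ vehicle. Red points are at least 2-fold higher, blue points at least 2-fold lower and black bars list medians. The medians run over the lists down to -3.85 for B-cell markers, and chondrocyte markers are at the top at 1.37.

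Genes of bone-forming cells were mostly lower in CD74+ vehicle, opposite to the cartilage genes. Of 15 osteoblast and osteocyte markers compared, 8 were past 2-fold lower and 1 was past 2-fold higher. Bglap, osteocalcin, had 4.604 CPM in CD74+ vehicle against 49.4 CPM in ACE+ vehicle, 10.7-fold lower (8.48 to 13.7). Its neighbouring copy Bglap2 had 3.47 CPM in CD74+ and 35.7 CPM in ACE+ cells, with reads that could be shared between both copies. Sp7, the osteoblast transcription factor osterix, had 2.63 CPM in CD74+ and 18.4 CPM in ACE+ cells, and Ibsp, bone sialoprotein, 2.57 CPM in CD74+ and 17.9 CPM in ACE+ cells. Dmp1, a matrix protein of osteocytes, had 0 reads in CD74+ vehicle and 2940 reads or 184 CPM in ACE+ vehicle. Set against a floor of 3 reads that is 1028-fold lower, and the exact interval of its fold has a lower limit of 836. It stood outside the CD74+ table, which lists no gene with 0 reads. Spp1, osteopontin, which macrophages also secrete, had 2792 CPM in CD74+ and 1958 CPM in ACE+ cells, and the list's summed levels of 3291 CPM and 3257 CPM are mostly Spp1. Fam20c, a kinase of secreted proteins expressed in many cells, was the higher member with 192 CPM in CD74+ and 84.7 CPM in ACE+ cells.

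Osteoclast genes, including those shared with other lists, were mostly on the lower side where they passed the threshold. Acp5, the tartrate-resistant phosphatase, had 129.6 CPM in CD74+ vehicle against 332 CPM in ACE+ vehicle, 2.56-fold lower (2.44 to 2.69). Mmp9, a gelatinase that neutrophils also store, had 282 CPM in CD74+ and 732 CPM in ACE+ cells, 2.595-fold lower (2.51 to 2.68). Car2, the carbonic anhydrase of osteoclasts and red cells, had 10.2 CPM in CD74+ and 34.9 CPM in ACE+ cells. In all, 6 of 22 genes of osteoclasts and RANK signalling were past 2-fold lower and 1 past 2-fold higher. These are 27.3% and 4.55% of the list, beside 7.73% and 3.64% of all genes compared. The higher gene was Tnfrsf11a, which encodes the receptor RANK on osteoclast precursors, with 33.1 CPM in CD74+ and 14.9 CPM in ACE+ cells, 2.22-fold higher (1.903 to 2.59). Its log2 change was 1.10 with vehicle and 0.19 with periostin. Itgb3, the beta chain of the osteoclast and platelet vitronectin receptor, had 590.4 CPM in CD74+ and 1199.9 CPM in ACE+ cells. Of 19 integrin genes compared, 5 were past 2-fold lower, Itgb3 among them, and none was past 2-fold higher. The lower share of this list was 26.3%. Itga6, a laminin receptor chain, had 249 CPM in CD74+ and 655 CPM in ACE+ cells, 2.63-fold lower (2.54 to 2.73). Itga5, the fibronectin receptor chain, had 172 CPM in CD74+ and 94.5 CPM in ACE+ cells, 1.82-fold higher (1.71 to 1.94). Integrins are listed here because periostin, the agent of the second pair, binds them.

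Dendritic cell, monocyte and progenitor lists had members past 2-fold on both sides. Cd209a, a lectin of monocyte-derived dendritic cells, had 3 reads in CD74+ vehicle against 193 reads in ACE+ vehicle, a 67.5-fold lower ratio with an interval of 22.8 to 330.2. Irf4, a transcription factor of dendritic cells and B cells, had 6.398 CPM in CD74+ and 52.8 CPM in ACE+ cells. Siglech, a lectin of plasmacytoid dendritic cells, had 20.4 CPM in CD74+ and 56.5 CPM in ACE+ cells. Of 17 dendritic cell genes 6 were past 2-fold lower and 1 past 2-fold higher. These are 35.3% and 5.88% of the list, beside 7.73% and 3.64% of all genes compared. The higher gene was Mgl2 with 8.79 CPM in CD74+ and 3.45 CPM in ACE+ cells. Ccr2, the receptor that brings monocytes out of the marrow, had 6.46 CPM in CD74+ and 28.4 CPM in ACE+ cells, 4.39-fold lower (3.55 to 5.47). Monocyte genes as a whole were mixed, with 5 past 2-fold lower and 3 past 2-fold higher of 19, that is 26.3% and 15.8%. Myb, a transcription factor of blood progenitors, had 6.52 CPM in CD74+ and 85.6 CPM in ACE+ cells, 13.1-fold lower (10.8 to 16.1). Flt3, a growth factor receptor of progenitors and dendritic cells, had 13.1 CPM in CD74+ and 33.8 CPM in ACE+ cells. Of 11 progenitor markers, 3 were past 2-fold lower (27.3%) and 2 past 2-fold higher (18.2%), with a median log2 change of -0.85. The higher genes were Kit, a growth factor receptor that mast cells also express, with 90.4 CPM in CD74+ and 33.4 CPM in ACE+ cells, and Cebpa, a transcription factor of the myeloid lineage, with 143 CPM in CD74+ and 63.6 CPM in ACE+ cells.

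Stromal lists were divided in the vehicle pair. Of 24 fibroblast and periosteal progenitor markers, 6 were past 2-fold lower and 5 past 2-fold higher in CD74+ vehicle. These are 25% and 20.8% of the list, beside 7.73% and 3.64% of all genes compared. Postn, which encodes periostin, had 12.1 CPM in CD74+ vehicle against 27.2 CPM in ACE+ vehicle, 2.25-fold lower (1.899 to 2.67). The collagen VI genes Col6a1, Col6a2 and Col6a3 were past 2-fold higher, with log2 changes of 1.54, 1.65 and 1.64. In the periostin pair their log2 changes were 0.27, 0.10 and -0.26, none of the same list was past 2-fold higher, and 10 were past 2-fold lower with a median of -0.93. Of 16 endothelial markers 6 were past 2-fold lower (37.5%) and none past 2-fold higher. Emcn, endomucin, had 16.6 CPM in CD74+ and 42.3 CPM in ACE+ cells. Of 24 T and NK cell markers only 7 were compared, 4 of them past 2-fold lower (57.1%). Il7r was past 2-fold higher (14.3%) with 288 CPM in CD74+ and 103 CPM in ACE+ cells. The part of other cells in the macrophage differences was not tested.

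Housekeeping lists showed small shifts of most members in a common direction. Of 79 ribosomal protein genes 72 were lower in CD74+ vehicle, with a median log2 change of -0.21 and none past 2-fold. In the periostin pair their median was 0.18. Of 63 nuclear genes of oxidative phosphorylation 54 were higher, with a median of 0.16, and of 31 proteasome genes 27 were higher, with a median of 0.22. Hmox1, heme oxygenase, which frees iron from heme, had 3989 CPM in CD74+ vehicle against 2186 CPM in ACE+ vehicle, 1.82-fold higher (1.801 to 1.85). Steap3, an endosomal iron reductase, had 49.7 CPM in CD74+ and 20.6 CPM in ACE+ cells, while Tfrc, the transferrin receptor, had 147 CPM in CD74+ and 279 CPM in ACE+ cells.

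Genes outside a table are described apart. The CD74+ table left out 2812 genes that the ACE+ table lists, because at least 1 CD74+ library had 0 reads. The ACE+ table left out 322 genes. The reads of left-out genes could be worked out from the deposited mean. Of the genes left out of the CD74+ table, 1288 had at least 1 CPM in a vehicle library, and 475 of them were past 2-fold lower in CD74+ vehicle and 51 past 2-fold higher. Among genes left out of the ACE+ table, 54 had at least 1 CPM, 31 of them past 2-fold higher and 2 past 2-fold lower. A gene is left out for 0 reads in at least 1 library of a subset, so the selection favours these directions. How far it does was not tested. Of the 2812 genes, 990 had 0 reads in CD74+ vehicle and 2522 in CD74+ periostin. After Dmp1, the left-out genes with most reads in ACE+ vehicle were Rag1, Bach2, Bcl7a and Fcmr. Rag1, the recombinase of developing lymphocytes, had 0 reads in CD74+ vehicle against 1084 reads in ACE+ vehicle. Set against the same floor that is 379-fold lower, and the exact interval has a lower limit of 308. In the periostin pair Rag1 had 2.06 CPM in CD74+ and 42.3 CPM in ACE+ cells, 20.5-fold lower. Bach2, a repressor of B-cell differentiation, had 4.54 CPM in CD74+ and 74.2 CPM in ACE+ cells, 16.3-fold lower (12.9 to 20.9). Fcmr, the receptor for IgM, had 3.17 CPM in CD74+ and 41.6 CPM in ACE+ cells.

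**Figure D4:**
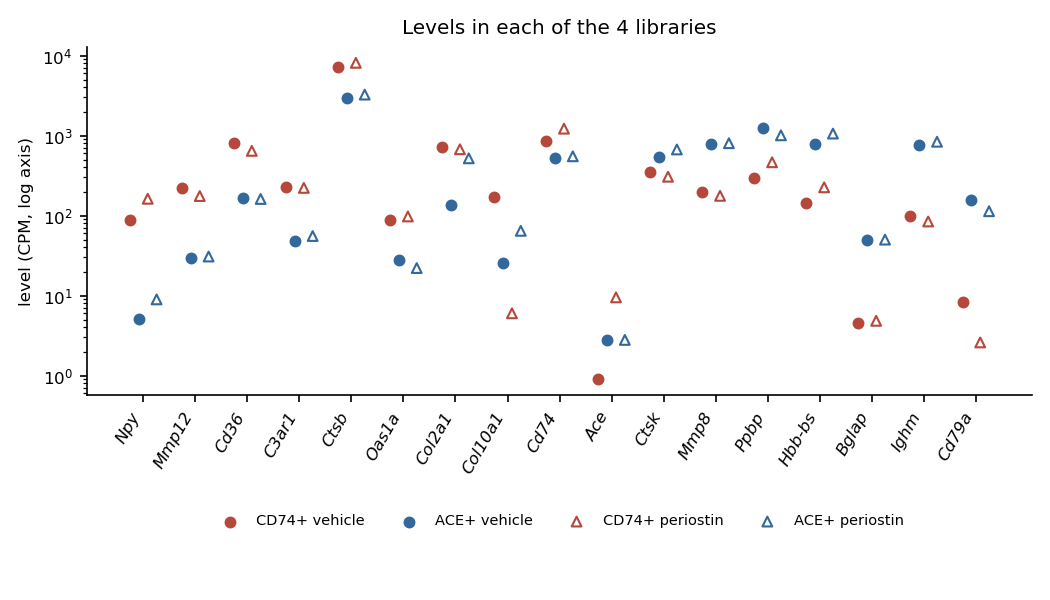
Levels (CPM, log axis) of selected genes in the 4 libraries, with CD74+ libraries in red and ACE+ libraries in blue, filled circles for vehicle and open triangles for periostin. Each symbol is 1 library, so there are no error bars. Npy, Mmp12, Cd36 and C3ar1 have both red symbols above both blue ones, Ighm and Cd79a have both below, and Col10a1 and Ace change order between the pairs.

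The periostin pair is a second set of libraries with an added agent. It is not a replicate of the vehicle pair, since the agent's effect could differ between the subsets. The sources used here do not say whether both libraries of a subset came from the same pool of sorted cells, and Xist was high in both CD74+ libraries and low in both ACE+ libraries. A difference between cell pools and one between subsets cannot be told apart, in the overlap of the pairs or in the fit over 4 libraries. Of the genes past 2-fold higher in the vehicle pair, 211 were past 2-fold higher in the periostin pair, 43.2% of them, where 6.94% of all genes in that pair were higher. Of those past 2-fold lower, 528 were lower again, 51.01%, where 10.4% of all genes were. As a share of the periostin pair's own calls these are 22.2% and 37.1%. In the opposite direction at 2-fold were 6 of the higher and 23 of the lower genes. Across the 13237 genes that passed the filter in both pairs, Spearman's rho of the 2 changes was 0.4996. Genes are not independent replicates. The change in the vehicle pair had a rank correlation of -0.0185 with gene length, and that in the periostin pair -0.227.

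A fit over all 4 libraries asked which genes differed between the subsets whatever the treatment. edgeR's quasi-likelihood test took treatment as a block and had 1 residual degree of freedom, so any difference in response to periostin counts as error. Its estimate of a gene's spread borrows from all other genes. No spread between mice or between sorts was measured, so a small adjusted p below is not evidence from replicates. At a Benjamini-Hochberg adjusted p of 0.05, edgeR called 793 of 13370 genes higher in CD74+ cells (5.93%) and 1158 lower (8.66%). These included 270 of the genes past 2-fold higher and 617 of those past 2-fold lower in the vehicle pair. The vehicle libraries are part of this fit. The overlap, and the adjusted p of a gene picked by its vehicle change, are therefore not independent of the vehicle pair. For Npy the edgeR adjusted p was 2.36e-20, for Cd36 8.73e-14, for Ctsb 2.53e-06 and for Oas1a 4.61e-09. For Cd79a it was 2.55e-21, for Ighm 6.96e-20, for Mmp8 1.86e-13 and for Bglap 3.38e-13. Col10a1, Ace and Aif1, whose direction differed between the pairs, were not called. They were picked for opposite directions, which this fit counts as error, so that outcome was largely set in advance. The edgeR adjusted p of Col10a1 was 0.927, of Ace 0.919 and of Aif1 0.896. By list, edgeR called 7 of 9 B-cell markers, 11 of 14 erythroid, 12 of 15 platelet and 14 of 22 neutrophil markers lower. It called 11 of 19 chondrocyte markers, 9 of 17 cathepsins, 17 of 38 other lysosomal genes and 13 of 35 interferon-stimulated genes higher.

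**Figure D5:**
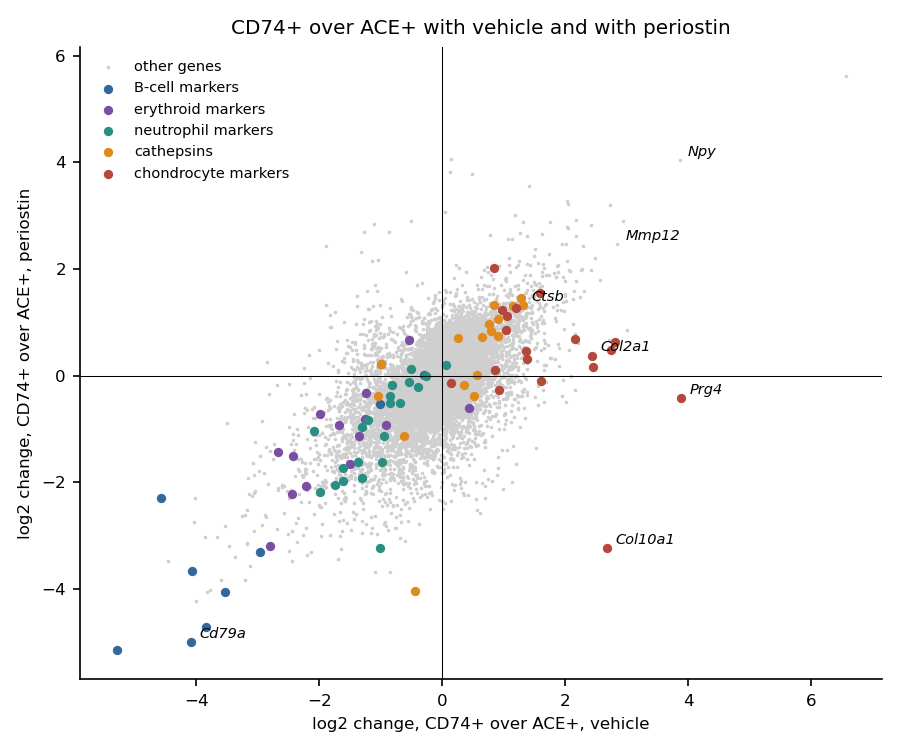
Each point is a gene, with its log2 change, CD74+ over ACE+, in the vehicle pair on the x axis and in the periostin pair on the y axis. Grey points are the genes with at least 5 CPM or past 2-fold in the vehicle pair, and coloured points the members of 5 lists. B-cell markers lie at the lower left in both pairs, and Prg4 and Col10a1 lie to the right of 0 with vehicle and below 0 with periostin.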

How the data were processed

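RNA sequencing of 4 libraries, 1 per group, was deposited, and groups were taken from the sample titles. Per the submitters' processing notes, reads were aligned with HISAT2 to GRCm38. Not given in the sources used here are tool versions, the way genes were counted and the use of strand. The authors deposited 1 table per subset with a signal per gene and library. It is a read count over a library-wide size factor, since 100% of the values came out as whole reads, to within 0.001 read, when divided by the smallest step of their library. The deposited mean equalled the mean of the 4 columns to within 0.001 for all 14398 genes in both tables, so the authors scaled the 4 libraries together and levels could be set across tables. The authors' deposited log2 fold changes of periostin over vehicle were not used for any result, nor were the enrichment sheets. Counts or CPM had been assumed in planning, so the scaled counts were brought to CPM.

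CPM are signals per 1000000 of the average library total, 15573211. Genes in both tables that reached 1 CPM in a vehicle library were compared by log2 of CPM + 1, CD74+ over ACE+, and counted at 2-fold, with no p-value, since there is 1 library per group. Intervals are exact 95% conditional binomial intervals of the recovered reads. Identifiers matched GENCODE mouse release M21 for 17384 of 17532 genes, and gene coordinates are from it. edgeR 4.0.16 (TMM, quasi-likelihood, treatment as a block, at least 1 CPM in 2 libraries) and DESeq2 1.42.0 tested the subset difference over all 4 libraries. On simulated counts for this design over 13370 genes, edgeR called 13 of 100 genes changed 2-fold and 85 of 100 changed 4-fold. Python 3.11.15, scipy 1.17.1 and R 4.3.3 were used.

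Motifs were searched on both strands of RefSeq promoter windows (GRCm38.p6). The motifs were the interferon-stimulated response element core described with the sequences, the lysosomal element TCACGTGA, the E-box core CACGTG that it contains, and the octamer ATGCAAAT. Searched but not described are the EBF core CCCNNGGG with its longer form, the GATA motif AGATAA, the AP-1 motif TGANTCA, the PU.1 core GAGGAA, and the NF-kB and MEF2 motifs. Of all windows, 13.7% hold the EBF core, 11.2% the GATA motif, 7.81% the AP-1 motif and 28.3% the PU.1 core.

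Named genes were the 15 largest changes in each direction among protein-coding genes with at least 5 CPM and no predicted name, the 5 largest differences in CPM in each direction, the sort markers, up to 4 members per list and direction (all members of lists of at most 12), and the 5 left-out genes in each direction with most reads. Col6a1 to Col6a3 and the others named here follow that rule, except Xist and genes given because they stood at 0. Some genes that the rule names are not reported here. The 57 gene lists, the members and the tests were chosen with earlier results of these data known, so a list's direction is not independent evidence.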

Additional observations from a re-analysis of the deposited data

Results flagged for a closer look

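Some differences between the subsets had opposite directions in the vehicle pair and the periostin pair, each past 2-fold. There were 6 genes higher in CD74+ than in ACE+ cells with vehicle and lower with periostin, and 23 genes lower with vehicle and higher with periostin. With 1 library per group the difference between the pairs was not tested. Col10a1 had a log2 change of 2.67 in the vehicle pair and -3.23 in the periostin pair. In reads this was 2821 in CD74+ vehicle and 409 in ACE+ vehicle, against 67 in CD74+ periostin and 1316 in ACE+ periostin. Marco had a log2 change of -1.90 in the vehicle pair and 1.33 in the periostin pair, on 1 read in CD74+ vehicle, 47 in ACE+ vehicle, 61 in CD74+ periostin and 32 in ACE+ periostin.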

How the results depend on the processing

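No replicate could be paired or left out, because each group holds 1 library and replicate numbers pair nothing. The fit over 4 libraries has treatment as its block and so sets the subsets against each other within treatment. The counts of 488 higher and 1035 lower genes stayed within 1.5 times under 5 CPM as the filter or none, the 3 other scalings, removal of length or GC trends, inclusion of left-out genes and removal of overlapping genes. The lower count came near that limit with left-out genes included, at 570 higher and 1512 lower of 14735 genes. A pseudocount of 0.1 CPM gave 802 higher, and one of 5 CPM 204 higher and 467 lower. A threshold of 4-fold gave 45 and 147, and one of 1.5-fold 1596 and 2271. The periostin pair gave 950 higher. Lists with at least 50% of compared members past the fold numbered 2 higher and 6 lower. The lower number was 3 with 5 CPM as pseudocount and 11 at 1.5-fold. At 4-fold the numbers were 0 higher and 1 lower, and the periostin pair gave 1 higher. Without the treatment block edgeR called 391 higher and 624 lower, since the periostin effect then counts as spread. With the block and other filters, factors or DESeq2, counts stayed within 1.5 times. Among named genes past 2-fold in the vehicle pair, 8 had the opposite sign in the periostin pair. Their log2 changes there were -0.43 for Prg4, -3.23 for Col10a1, 1.33 for Marco, -0.97 for Aif1, 0.41 for Folr2, 0.98 for Itga1, -0.29 for F13a1 and -0.26 for Col6a3. Smaller changes that turned, such as that of Ace, are not in this count. Another 129 named genes moved by more than the half-width of their counting interval, and 33 did not. By the typical half-width of their members, 41 list medians moved and 16 did not. The cause of these shifts was not tested. Median change over all genes was -0.0416 under library totals and within 0.01 of 0 under the other scalings.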

Other observations

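Factors that act on vessels and nerves, after which the study is named, lay on both sides. Of 22 angiogenic factors compared, 1 was past 2-fold higher in CD74+ vehicle, Nrp1, and 2 were past 2-fold lower, with a median log2 change of -0.17. These are 4.55% and 9.09% of the list, beside 3.64% and 7.73% of all genes compared. Of 28 neurotrophic and axon guidance genes, 2 were past 2-fold higher, Npy and Nrp1, and 3 past 2-fold lower, 7.14% and 10.7% of the list. Plau, the urokinase that activates plasmin, had 89.9 CPM in CD74+ vehicle and 50.7 CPM in ACE+ vehicle, 1.77-fold higher (1.63 to 1.93). Sema3f, a repellent guidance cue, had 0.359 CPM in CD74+ vehicle and 3.01 CPM in ACE+ vehicle.

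Several central pathways lay around the median of all genes. Of 32 glycolysis and hypoxia genes, 1 was past 2-fold higher and 3 past 2-fold lower in CD74+ vehicle, with a median log2 change of 0.02. These are 3.1% and 9.4% of the list, beside 3.64% and 7.73% of all genes compared. None of 18 genes of NF-kB and its feedback and none of 21 MHC class I genes passed 2-fold. At those shares of all genes, lists this short would hold few calls, so their absence says little. Over the 4 libraries edgeR called 2 of the NF-kB genes higher and 4 lower, and 3 of the MHC class I genes higher and 0 lower. Of 28 cholesterol genes, 1 passed 2-fold lower (3.57%), Scd1, with 8.55 CPM in CD74+ vehicle and 25.6 CPM in ACE+ vehicle. Homologous recombination genes had a median log2 change of 0.00 over 22 genes.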
